A study of Mus musculus with 5 samples.

Results

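The cone phototransduction cascade was examined through 10 genes in the retinas of form-deprived mice: the opsins Opn1sw and Opn1mw, the transducin subunits Gnat2, Gnb3 and Gngt2, the phosphodiesterase subunits Pde6c and Pde6h, the channel subunits Cnga3 and Cngb3, and cone arrestin Arr3. The members were chosen by gene symbol from a table of 33636 genes, each symbol stood on 1 row, and all 10 passed the count filter that 17432 genes passed. The retinas came from wild-type male C57BL6/J mice, an inbred laboratory strain, kept on a 12-12 hour light-dark cycle and collected at P42 in the light phase. A diffuser goggle had covered the right eye for 2 weeks from P28 (form-deprivation myopia, FDM), which blurs the image on the retina, and the uncovered left eye served as the control. Poly-A RNA was sequenced from 2 FDM and 3 control retinas. FDM 1 and Control 1 were eyes of one mouse and FDM 3 and Control 3 of another. Control 2 stood alone: the study removed 1 sample for its read duplication, and no FDM library of that mouse was used. The number 3 of the second FDM library is that of the count table and of the study's mouse numbering; its sample label carries the number 2. The sample labels give refractive errors at P42 of 0.976 and 0.2745 for the FDM eyes, and of 2.4455, 3.1505 and 2.465 for the control eyes, in dioptres. Each control shared an animal with a goggled eye, so an effect of the goggle on the fellow eye cannot be told apart from the control state.

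Cones are the photoreceptors of daylight and colour vision. Light activates the opsin, the opsin activates the G protein transducin, transducin activates the phosphodiesterase PDE6, and PDE6 breaks down cGMP, so that the cGMP-gated cation channel closes and the cell hyperpolarizes. Arrestin then binds the phosphorylated opsin and ends its activity. Rods use a parallel set of proteins from related genes. In mice, most cones hold both opsins, with the short-wavelength (S) opsin highest in the ventral retina and the middle-wavelength (M) opsin highest in the dorsal retina. Cones are a small minority of mouse photoreceptors, and in RNA from a whole retina fewer cones and less RNA per cone cannot be told apart.

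The libraries held 40599047 to 56534931 estimated counts, and the members 608 to 28372 counts each. Levels are given as CPM, counts scaled to one fixed library size after dividing by the library total and edgeR's TMM factor. The labelled tissue, retina, was checked with Gnat1, the rod alpha transducin gene, which had 10089 to 13723 CPM. Some libraries stood apart. Of 12 lens genes listed, for crystallins and lens fibre proteins, 11 were summed and tested (Cryaa, Cryab, Cryba1, Cryba2, Cryba4, Crybb1, Crybb2, Crygs, Bfsp1, Bfsp2 and Mip). These 11 summed to 2444 CPM in FDM 3 and to 26.2 to 48.8 CPM in the other 4 libraries, FDM 1 among them at 28.5. Each was highest in FDM 3, with an unadjusted p under 0.05 from edgeR. The 8 retinal pigment epithelium (RPE) genes summed to 61.4 in FDM 1, 51.3 in FDM 3 and 68.1 in Control 1, against 248 in Control 2 and 212 CPM in Control 3, and Rpe65, Lrat, Ttr, Rgr, Slc26a4 and Kcnj13 (6 of the 8) had an unadjusted p under 0.05, lower in FDM eyes. After adjustment no gene of either list passed in this fit, while 7 of the 11 lens genes and 1 of the 8 RPE genes (Slc26a4) did with a block for the mouse (edgeR). The part of these libraries in the results below was not tested beyond leaving out each library in turn.

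The cascade spanned a wide range of transcript levels. Divided by the length of the principal annotated transcript, the mean CPM per kilobase over the 5 libraries was highest for Arr3, at 252 ± 31.4 (SD, n = 5), and was 229 ± 25.8 for Gnb3 and 193 ± 24.6 for Opn1sw. Opn1mw at 99.2 ± 15.4, Gnat2 at 97.9 ± 4.83 and Gngt2 at 96.0 ± 6.13 followed at nearly one level. The ranges over libraries overlapped between Arr3 and Gnb3, between Gnb3 and Opn1sw, and among Opn1mw, Gnat2 and Gngt2, so the order of these neighbours is not set. The phosphodiesterase genes stood lower, with the catalytic Pde6c at 41.7 ± 2.79 and the inhibitory Pde6h at 23.3 ± 0.949 CPM per kilobase. The channel genes were lowest, with Cnga3 at 4.45 ± 0.395 and Cngb3 at 3.56 ± 0.237, and in every library Cnga3 lay above Cngb3 per kilobase. This order rests on 1 transcript per gene, of 5940 bases for Pde6h, 2410 for Opn1sw and 587 for Gngt2, and a shorter or longer transcript in use would move those genes.

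**Figure D1:**
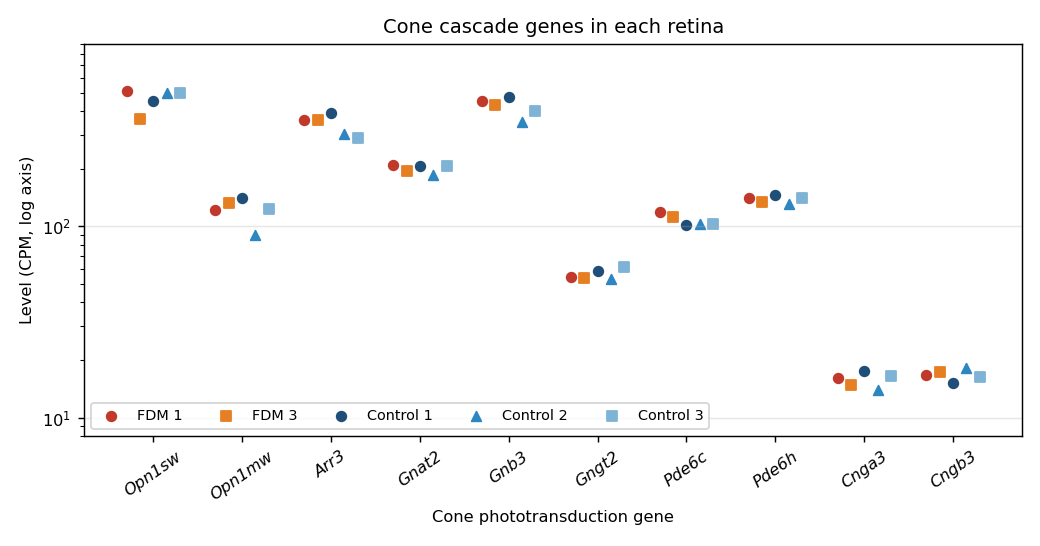
Level of the 10 cone cascade genes in CPM, not divided by length, on a log axis, with 1 point per library for FDM 1, FDM 3 and Control 1 to 3. The points of each gene lie close together, the widest ratio of highest to lowest library being 1.55 for Opn1mw and the narrowest 1.11 for Pde6h. The FDM and control ranges overlap for every gene but Pde6c, and 10.6% of all genes tested did not overlap.

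The question for each member was whether its transcript differed between FDM and control eyes. No cone gene (0 of 10) had an unadjusted p under 0.05 in edgeR's quasi-likelihood test, where 281 of the 17432 genes tested did (1.61%), and the adjusted p of all 10 was 1.0. DESeq2 called 1 of the 10 at the unadjusted threshold, Pde6c, and 172 of all genes (0.987%). Of the members, 6 had a positive and 4 a negative log2 fold change, from -0.15 for Opn1sw to 0.16 for Pde6c. Their median was 0.030, against -0.012 over all genes tested with a mean of at least 10 CPM, and the median size of the change regardless of sign was 0.10 against 0.047 for those genes. The 95% confidence intervals of the 10 fold changes lay between 0.717-fold for Opn1sw and 1.43-fold for Opn1mw. In 1 of 10 members, Pde6c, the FDM and control libraries did not overlap, as in 10.6% of all genes tested, and both FDM libraries were above the controls, as in 3.97%. With a library left out, the members called were Opn1sw without FDM 1 (background 0.947% of all genes), none without FDM 3 (1.12%), Arr3 without Control 1 (5.42%), Pde6c without Control 2 (3.16%) and none without Control 3 (0.838%).

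**Figure D2:**
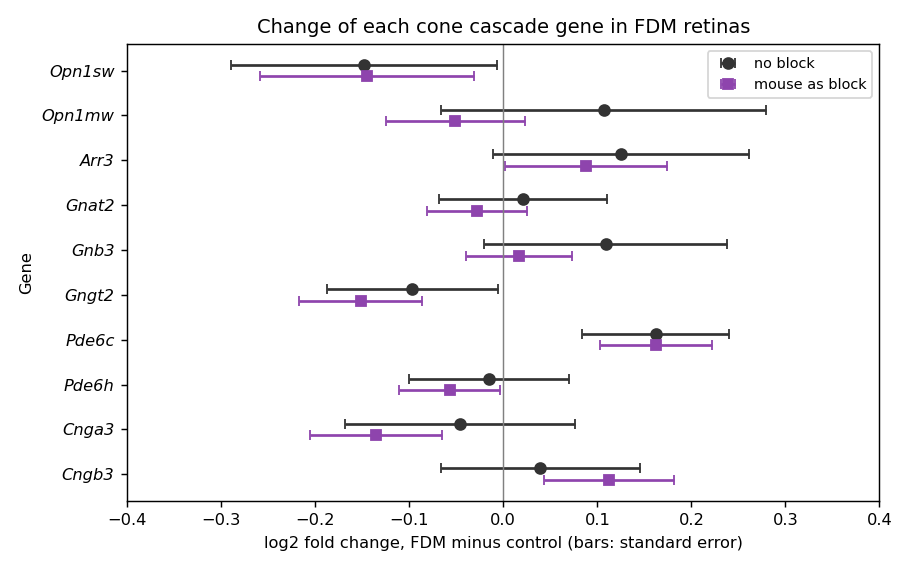
Log2 fold change of each cone cascade gene, FDM minus control, from edgeR without a block (circles) and with the mouse as a block (squares), with bars of 1 standard error. Estimates without the block run from -0.15 for Opn1sw to 0.16 for Pde6c. With the block, Pde6c and Gngt2 had an unadjusted p under 0.05, as did 7.23% of all genes tested. With the block by title number, 0 members did, beside 439 of the 17432 genes tested.

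The opsins start the cascade. Opn1sw, the S opsin gene (ENSMUSG00000058831, GRCm38 chromosome 6, bases 29376671 to 29388468), reached 508 CPM in FDM 1 and 366 in FDM 3, against 455, 498 and 500 in Controls 1, 2 and 3. FDM 3 was the lowest library and FDM 1 the highest, with all controls between them. FDM eyes averaged 437 ± 101 CPM (SD, n = 2), control eyes 484 ± 25.2 (SD, n = 3), and the log2 fold change was -0.15 (standard error, SE, 0.14, edgeR unadjusted p = 0.330). The value rested on FDM 3: it was 0.070 without that library, and -0.40 (unadjusted p = 0.0318 from edgeR, where 0.947% of all genes passed) without FDM 1. Of the 31-base words in its annotated transcripts, 14.0% also occur in transcripts of other genes, chiefly Calu, whose exons overlap it, and reads there could be split between these genes.

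Opn1mw, the M opsin gene (ENSMUSG00000031394, chromosome X, 74127464 to 74150760), was at 122 CPM in FDM 1 and 132 in FDM 3, beside 140, 90.5 and 124 in Controls 1, 2 and 3. Control 2 stood below the other 4 libraries, and both FDM libraries lay within the range of the controls. Its log2 fold change was 0.11 (SE 0.17, edgeR unadjusted p = 0.555) and -0.042 without Control 2. The control eyes varied more for Opn1mw than for any other member, with an SD of 21.5% of the mean, against 0.814% for Pde6c. The Pde6c value is smaller than counting error alone gives on average for its 4068 to 5873 control counts.

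The balance of the opsins does not depend on the scaling of a library. It is one of counts, not of molecules, as counts were not divided by transcript length (2410 bases for Opn1sw, 1227 for Opn1mw). Opn1sw held 80.6% of the cone opsin counts in FDM 1 (95% Wilson interval 80.1 to 81.1), 73.5% in FDM 3 (72.9 to 74.0), 76.4% in Control 1 (75.9 to 77.0), 84.6% in Control 2 (from 84.2) and 80.2% in Control 3 (79.7 to 80.6), intervals that cover counting error only. The libraries differed from one another by more than this error, except FDM 1 and Control 3, while the FDM libraries lay on either side of Control 1 and Control 3. For the log2 ratio of Opn1sw to Opn1mw counts, FDM eyes averaged 1.76 ± 0.41 (SD, n = 2) and control eyes 2.06 ± 0.38 (SD, n = 3), a difference of -0.29 (exact permutation test, two-sided, p = 0.6, where the smallest p for 2 against 3 libraries is 0.2). Without FDM 3 the difference was -0.0018, and without FDM 1 it was -0.59.

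The upstream sequences of both opsin genes are shown because the libraries at the ends of the opsin balance, FDM 3 and Control 2, lay on opposite sides of the mean for these genes. They are the 250 bases before the RefSeq transcription start in GRCm38.p6, Opn1sw on the minus strand at chr6:29380514-29380763 and Opn1mw on the plus strand at chrX:74127216-74127465. Capitals mark AGGTCA on either strand, the half-site letters read by nuclear receptors such as the thyroid hormone receptor.
Opn1sw: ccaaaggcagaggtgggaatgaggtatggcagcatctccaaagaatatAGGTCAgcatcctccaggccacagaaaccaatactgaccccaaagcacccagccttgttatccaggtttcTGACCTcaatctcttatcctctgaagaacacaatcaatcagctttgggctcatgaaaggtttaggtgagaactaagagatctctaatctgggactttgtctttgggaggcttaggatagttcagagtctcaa
Opn1mw: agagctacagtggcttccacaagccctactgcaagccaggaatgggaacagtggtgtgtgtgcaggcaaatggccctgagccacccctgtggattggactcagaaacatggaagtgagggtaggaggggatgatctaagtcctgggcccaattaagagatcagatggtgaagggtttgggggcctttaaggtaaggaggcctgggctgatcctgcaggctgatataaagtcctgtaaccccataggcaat
The Opn1sw sequence held this half-site 2 times, beginning 202 bases before the start on the strand of the gene and 132 bases before it on the other strand, and the Opn1mw sequence did not hold it. Of 32851 promoter sequences of this length in the RefSeq table, 14.0% held it on either strand. The letters TAATCC, bound by the photoreceptor factor CRX and sharing no overlap with the half-site here, were in neither opsin sequence and in 6.25% of all promoters on either strand. Among the 6 members with a promoter entry, Gnat2 held the CRX letters, on the strand opposite to the gene and 19 bases before its start.

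Genes of the dorsal and ventral retina are given beside the opsins, whose levels follow that axis in mice. Tbx5, a dorsal transcription factor gene, had 4.08 and 6.63 CPM in FDM 1 and FDM 3, and 5.69, 2.46 and 3.31 in Controls 1, 2 and 3. Vax2, a ventral transcription factor gene, had 30.6, 21.0, 26.2, 36.2 and 32.0 CPM in the same order. FDM 3, with the lowest S opsin share, was highest for Tbx5 and lowest for Vax2, and Control 2, with the highest share, was lowest for Tbx5 and highest for Vax2. Of the 5 dorsal genes, 4 were highest in FDM 3 and 4 were lowest in Control 2. Control 2 was also lowest for 6 of the 10 cone members and 6 of the 9 rod cascade genes. It was lowest for 4 of the 8 ON bipolar genes, 3 of the 12 shutoff genes and 0 of the 8 RPE genes. A share over all genes was not computed. Of the 4 ventral genes, Vax2 and Aldh1a3 were lowest in FDM 3 and highest in Control 2, while Ephb2 and Ephb3 were highest in Control 1 and, opposite to Vax2 and Aldh1a3, lowest in Control 2. None of these 9 genes had an unadjusted p under 0.05 between FDM and control eyes in edgeR (0 of 5 dorsal, 0 of 4 ventral, against 1.61% of all genes), nor in the fit blocked by mouse. The medians of their log2 fold changes were 0.16 and -0.15. Their part in the opsin levels was not tested.

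**Figure D3:**
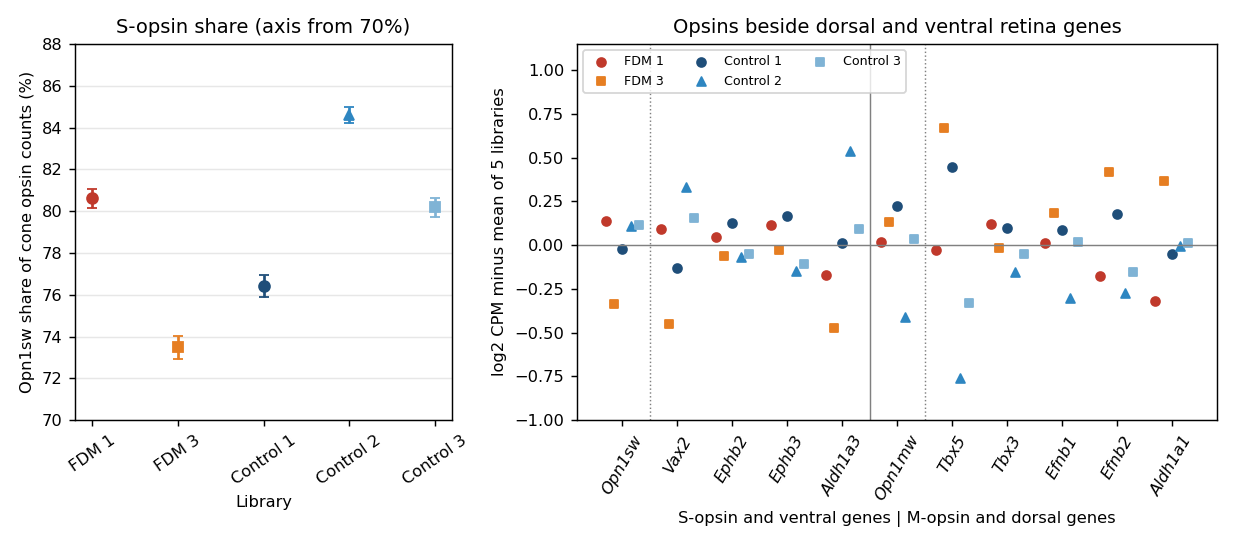
Left, share of Opn1sw in the summed Opn1sw and Opn1mw counts of each library in percent, with 95% Wilson intervals and an axis that starts at 70%; it is lowest in FDM 3 (73.5%) and highest in Control 2 (84.6%). Right, log2 CPM of each gene minus its mean over the 5 libraries, for Opn1sw with the ventral genes and Opn1mw with the dorsal genes. FDM 3 is lowest for Opn1sw, Vax2 and Aldh1a3, and highest for Tbx5, Efnb1, Efnb2 and Aldh1a1. Ephb2 and Ephb3 are lowest in Control 2, while Tbx3 is highest in FDM 1 and Opn1mw in Control 1.

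None of the 3 transducin genes passed the test without a block. Gnat2, the cone alpha subunit (ENSMUSG00000009108, chromosome 3, 108092789 to 108101432), was measured at 210 CPM in FDM 1 and 196 in FDM 3, next to 207, 186 and 206 in Controls 1, 2 and 3. The groups overlapped, the log2 fold change being 0.021 (SE 0.089, edgeR unadjusted p = 0.822). Its lowest library was Control 2, as it was for 6 of the 10 members. Gnb3, the cone beta subunit, is also used by ON bipolar cells, so its counts come from more than cones. Gnb3 (ENSMUSG00000023439, chromosome 6, 124834240 to 124840275) was at 454 CPM in FDM 1 and 431 in FDM 3, and at 476, 354 and 402 in Controls 1, 2 and 3, and its log2 fold change was 0.11 (SE 0.13, edgeR unadjusted p = 0.426). Control 1 was the highest and Control 2 the lowest library of Gnb3, with the FDM eyes between them, and the log2 fold change was 0.023 without Control 2 and 0.23 without Control 1 (edgeR unadjusted p = 0.0549).

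Gngt2, the cone gamma subunit (ENSMUSG00000038811, chromosome 11, 95837216 to 95845734), was at 54.4 and 53.8 CPM in FDM 1 and FDM 3, and at 58.5, 53.4 and 61.6 in Controls 1, 2 and 3. Each FDM eye lay below the control eye of its own mouse, and the unpaired Control 2 lay just below them. The log2 fold change was -0.10 (SE 0.091, edgeR unadjusted p = 0.321) and -0.042 without Control 3. In the fit blocked by mouse it was -0.15 (SE 0.065, unadjusted p = 0.0459 and adjusted p = 0.683 in edgeR), a fit in which Control 2 carries no information on the eyes and 1 residual degree of freedom is left. In that fit 7.23% of all genes had an unadjusted p under 0.05, 3.57% higher and 3.67% lower in FDM eyes. Blocked instead by the numbers in the sample titles, which pair FDM 3 with Control 2, 0 of 10 members were called. Among all 17432 genes tested, 439 were called with this block. Of the 31-base words of Gngt2, 8.25% also occur in transcripts of other genes, chiefly Abi3, whose exons overlap it.

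The phosphodiesterase holds the member whose groups did not overlap, as in 10.6% of all genes tested. Pde6c, the catalytic subunit of cones (ENSMUSG00000024992, chromosome 19, 38132781 to 38183958), stood at 119 CPM in FDM 1 and 111 in FDM 3, and at 102, 103 and 104 in Controls 1, 2 and 3. Both FDM libraries lay above every control. The 3 controls lay within a narrow range, narrower than counting error alone gives on average for such counts. FDM eyes averaged 115 ± 5.19 CPM (SD, n = 2) and control eyes 103 ± 0.837 (SD, n = 3), a fold change of 1.12 (95% confidence interval 0.985 to 1.27, unadjusted p = 0.0756 and adjusted p = 1.0 in edgeR). DESeq2 gave an unadjusted p of 0.0495 (adjusted p = 1.0). With the mouse as a block the log2 fold change was again 0.16 (SE 0.060, unadjusted p = 0.0236 with an adjusted p of 0.627 in edgeR). In that fit 7.23% of all genes had an unadjusted p under 0.05. With the block by title number the log2 fold change was 0.17 (unadjusted p = 0.250 in edgeR). Without Control 2 and with no block it was 0.17 (unadjusted p = 0.0388 from edgeR, where 3.16% of all genes passed). Leaving out each library in turn kept it between 0.12 and 0.21, the sign being set by both FDM libraries lying above every control. No 31-base word of Pde6c occurs in another gene's transcripts.

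Pde6h, the inhibitory subunit of the cone enzyme (ENSMUSG00000064330, chromosome 6, 136923832 to 136968865), did not separate the groups. Its values were 141 and 135 CPM in FDM 1 and FDM 3, beside 145, 131 and 141 in Controls 1, 2 and 3, the narrowest relative range of the 10 genes. The FDM eyes lay within the control range, and the log2 fold change was -0.015 (SE 0.085, edgeR unadjusted p = 0.863). Each FDM eye was below the control eye of its mouse for Pde6h and above it for Pde6c.

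The channel genes were the least abundant members. Cnga3, the pore-forming alpha subunit of the cone channel (ENSMUSG00000026114, chromosome 1, 37214434 to 37263384), was at 16.1 CPM in FDM 1 and 14.9 in FDM 3, with 17.6, 14.0 and 16.4 in Controls 1, 2 and 3. Its log2 fold change was -0.046 (SE 0.12, edgeR unadjusted p = 0.716), with both FDM libraries inside the control range. Cngb3, the modulatory beta subunit (ENSMUSG00000056494, chromosome 4, 19280850 to 19510623), had 16.8, 17.3, 15.2, 18.2 and 16.3 CPM in the same order, with a log2 fold change at 0.039 (SE 0.11, edgeR unadjusted p = 0.722). Control 2 was the lowest library for Cnga3 and the highest for Cngb3, and Control 1 the reverse.

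Arr3, cone arrestin, which quenches light-activated cone opsin (ENSMUSG00000060890, chromosome X, 100605497 to 100618493), reached 362 CPM in FDM 1 and 359 in FDM 3, and 394, 305 and 291 in Controls 1, 2 and 3. The FDM libraries were nearly equal and lay between Control 1 above and the other controls below. FDM eyes averaged 360 ± 1.99 CPM (SD, n = 2), control eyes 330 ± 55.7 (SD, n = 3), and the log2 fold change was 0.13 (SE 0.14, edgeR unadjusted p = 0.387). The spread was that of the controls: without Control 1 the log2 fold change was 0.27 (unadjusted p = 0.0146 from edgeR, where 5.42% of all genes passed). Control 1 is the partner of FDM 1, and within that mouse Arr3 was lower in the FDM eye.

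The eyes of one mouse are also given pair by pair, as a description; the test over both pairs is the fit blocked by mouse. In the mouse of FDM 1 and Control 1, the FDM eye was 16.5% higher for Pde6c, 11.7% higher for Opn1sw and 10.1% higher for Cngb3. In the same mouse the log2 difference, FDM minus control eye, was -0.20 for Opn1mw, -0.12 for Arr3 and -0.12 for Cnga3. In the mouse of FDM 3 and Control 3, Arr3 was 23.1% higher, Pde6c 7.57% higher and Cngb3 6.26% higher in the FDM eye, and the log2 difference for Opn1sw was -0.45. The sign was shared by both mice for 5 of 10 members. Pde6c and Cngb3 were higher in both FDM eyes, as were 24.7% of all genes tested, and Gngt2, Pde6h and Cnga3 were lower in both, as were 30.3% of all genes. For Pde6c, both FDM libraries lay above every control, so any pairing puts the FDM eye higher. Opn1sw, Opn1mw, Arr3, Gnat2 and Gnb3 differed in sign between the mice. The log2 ratio of Opn1sw to Opn1mw differed by 0.36 between the FDM and control eye of the first pair and by -0.55 in the other.

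**Figure D4:**
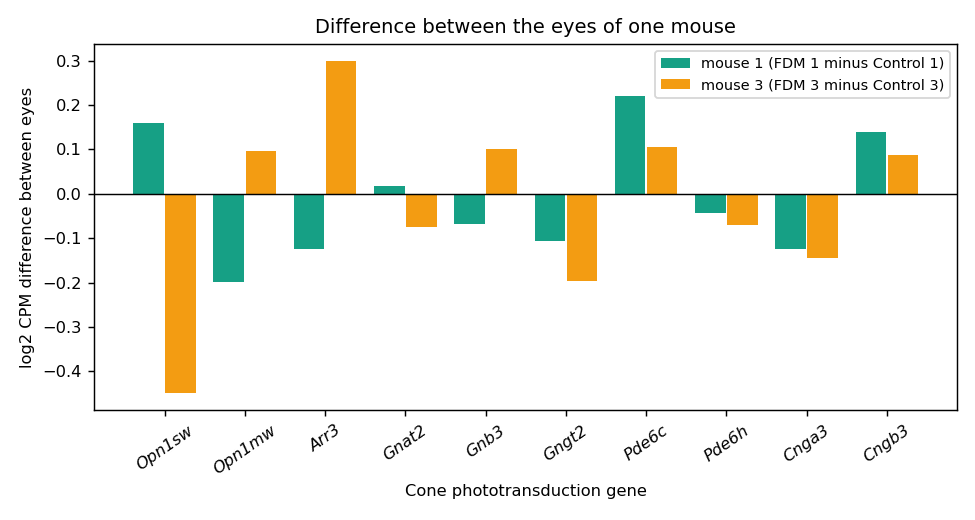
Difference in log2 CPM between the FDM and the control eye of each mouse for the 10 genes, with 1 bar for FDM 1 minus Control 1 and 1 for FDM 3 minus Control 3. The bars of 5 genes point the same way, up for Pde6c and Cngb3 and down for Gngt2, Pde6h and Cnga3, and the longest is Opn1sw in the mouse of FDM 3, at -0.45.

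Rods run the same cascade with related proteins, so 8 cone genes were each set against a rod counterpart within a library. The 10 cone genes summed to 2003 and 1815 CPM in FDM 1 and FDM 3 and to 2011, 1753 and 1862 in Controls 1, 2 and 3, with both FDM libraries inside the range of the controls. Of 9 rod cascade genes, 0 passed at the unadjusted threshold in edgeR, and their median log2 fold change was -0.024. Blocked by mouse, 4 of the 9 did, all lower in FDM eyes, against 3.67% of all genes: Gnat1, Gngt1, Pde6g and Sag, with log2 fold changes from -0.17 to -0.12 and adjusted p from 0.619 to 0.689 in edgeR.

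Per 100 counts of the rod catalytic genes Pde6a and Pde6b, Pde6c had 2.19 and 2.21 counts in FDM 1 and FDM 3, and 1.81, 2.11 and 1.995 in Controls 1, 2 and 3. It was the ratio whose groups did not overlap, with both FDM libraries above every control, among the 8 ratios plotted. A share over other ratios was not computed. For the CPM of single genes, the groups did not overlap in 10.6% of all genes tested. The lower FDM library exceeded the highest control by less than the controls differed among themselves. Arr3 per 100 counts of Sag, the rod arrestin gene, was 7.71, 8.43, 7.92, 6.40 and 5.75 in the same order, with Control 1 between the FDM libraries. Gnat2 per 100 counts of Gnat1 was 1.65, 1.68, 1.51, 1.85 and 1.55, and was higher in the FDM eye of each mouse, while the Gnat2 level itself differed in sign between the mice (log2 difference 0.018 and -0.075). Higher in both FDM eyes were also the ratios of Pde6c, Pde6h and Cngb3. The Pde6h level itself was lower in both (log2 difference -0.043 and -0.071), and that of Pde6g, its rod counterpart, by more (-0.13 and -0.12). The ratio of Cnga3 to Cnga1 was lower in both FDM eyes, at -0.069 and -0.15 on the log2 scale. A share of other gene ratios with the same sign in both mice was not computed.

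**Figure D5:**
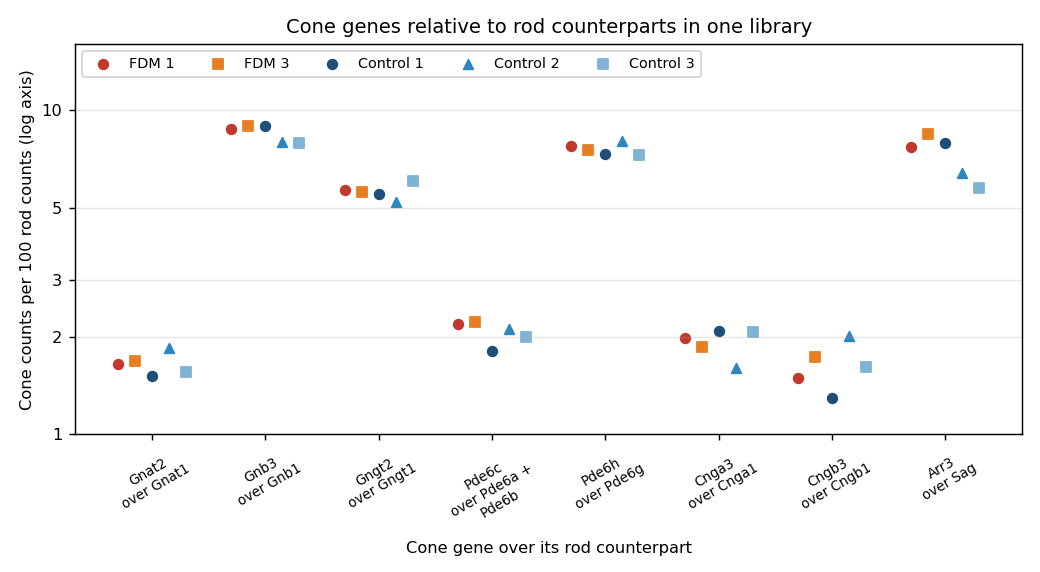
Counts of 8 cone genes per 100 counts of their rod counterparts, on a log axis, with 1 point per library. The FDM and control points overlap for each pair shown but Pde6c over Pde6a and Pde6b, where FDM 1 (2.19) and FDM 3 (2.21) lie above the highest control (2.11). For the CPM of single genes, 10.6% of all genes tested did not overlap.

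Genes that shut off and reset the response were read from the same fit. Among 12 such genes were Grk1 for the opsin kinase, Rgs9 and Rgs9bp for the complex that speeds transducin shutoff, and the guanylate cyclase genes Gucy2e and Gucy2f. This list is not limited to genes of cones, and counts from a whole retina cannot be assigned to cones. Of the 12, 0 had an unadjusted p under 0.05, and their log2 fold changes ran from -0.081 to 0.11. Blocked by mouse, 4 of the 12 did, against 7.23% of all genes. Rgs9 had 438 and 355 CPM in FDM 1 and FDM 3, and 326, 467 and 311 in Controls 1, 2 and 3, higher in the FDM eye of each mouse but highest in the unpaired Control 2. Its log2 fold change was 0.11 without and 0.31 with the block (adjusted p = 0.175 from edgeR with the block). Rgs9bp had a log2 fold change of 0.20 and Gucy2f of 0.38 with the block, and Rcvrn, for the calcium sensor recoverin, of -0.13 (adjusted p from 0.416 to 0.654 from edgeR with the block).

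Genes of cone identity did not pass either (0 of 5). Thrb, the thyroid hormone receptor gene whose product directs M opsin, had 63.8 and 59.6 CPM in FDM 1 and FDM 3, and 51.7, 75.6 and 56.4 in Controls 1, 2 and 3, with the FDM eyes inside the control range. Its log2 fold change was 0.0094 (unadjusted p = 0.955 from edgeR), and 0.19 with the mouse as a block (unadjusted p = 0.0306 and adjusted p = 0.654 in edgeR). Rxrg, for a nuclear receptor that acts with it in cones, was at 0.089 on that scale (unadjusted p = 0.508 from edgeR). Of 8 genes of ON bipolar cells, which share Gnb3 with cones, 0 had an unadjusted p under 0.05, with log2 fold changes from -0.030 to 0.11.

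The pattern over the 5 libraries was compared with that of the other 10593 genes with a mean of at least 10 CPM, as the root mean square difference of log2 CPM centred on each gene's mean. The mean pattern of the 10 members was highest in Control 1 and FDM 1 and lowest in Control 2, and the nearest genes were Osgep at 0.0037, Pard6a at 0.0069, Dnpep at 0.0070, Rgmb at 0.0087 and Dbr1 at 0.0092. For Opn1mw, the member with the widest range, they were Chadl at 0.0486, Kcnd1 at 0.0525, Fignl2 at 0.0533, Frs3 at 0.0563 and Zfp580 at 0.0564. All 10 of these genes were lowest in Control 2, as was Opn1mw. This follows from how they were picked, for nearness to patterns that are lowest in Control 2.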

How the data were processed

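Per the labels, the authors trimmed the reads with Trimmomatic 0.39 and quantified transcripts with Salmon 1.10.1, with GRCm38 (mm10) named as the build. They summed the estimated counts to genes and deposited them as whole numbers. A second deposited table holds the authors' DESeq2-normalized signal, which has its own factor per gene and library. The filter kept genes over 10 counts in 2 or more libraries, and edgeR 4.0.16 tested them (R 4.3.3, TMM factors, quasi-likelihood test, no covariate) at the unadjusted p of 0.05 that the study used, with Benjamini-Hochberg values over all genes tested. Alternatives used DESeq2 1.42.0, limma 3.58.1, other filters and factors, a block for the mouse, and fits lacking 1 library in turn. The block rests on shared animals. Across genes, the eyes of one mouse deviated from their group means with a correlation of 0.252 (mouse 1) and 0.134 (mouse 3), but FDM 3 correlated at 0.143 with Control 2, so these values do not single out its partner, which comes from the mouse numbers. With 2 FDM libraries, the deviations of FDM 3 are those of FDM 1 with the sign turned. The value of mouse 3 is thus that of FDM 1 with Control 3 (-0.134) turned, and not a separate observation. The libraries were separate samples, the smallest chi-square per degree of freedom between any pair being 11.9. The scripts were checked on simulated counts. Coordinates and transcript lengths are from GENCODE M21 (GRCm38), using the RefSeq-matched principal transcript, and promoters from RefSeq (GRCm38.p6). The members and gene lists were chosen with earlier results of these data known. The rule for named genes took all members, list genes with an unadjusted p under 0.05 without a block, and 4 more genes, of which Gnat1, Thrb and Rxrg are given. The other is not reported here and was left out of the rod list. Genes near the members were ranked by a fixed measure. Other list genes named in the text were chosen after their values were seen.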

Additional observations from a re-analysis of the deposited data

How the results depend on the processing

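The 0 cone genes at an unadjusted p under 0.05 became 1 in DESeq2 (Pde6c) and 2 with the mouse as a block (Pde6c and Gngt2), and stayed at 0 with DESeq2's factors in edgeR, no count filter, filterByExpr, limma with either pseudocount, the authors' factors and the block by title number. Omitting 1 library at a time gave 0 to 1: Opn1sw without FDM 1, Arr3 without Control 1, Pde6c without Control 2. Of all genes, 281 passed, against 498 with no filter, 172 in DESeq2, 1261 with the mouse as a block, 439 with the block by title number, and 146 to 944 with each library left out. Of the list genes, 17 passed (11 lens, 6 RPE), against 6 in limma with either pseudocount, 30 with the mouse as a block, and 6 to 22 with each library left out. The low ends were without Control 3 for all genes and FDM 3 for the lists, the high ends without Control 1 (and Control 2 for the lists), and the cause was not tested. With the title numbers as pairs, 2 rather than 5 members had the same sign in both pairs. The share of all genes was computed for the mouse pairs only.

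With the mouse as a block, Opn1mw turned to -0.051 and Gnat2 to -0.028 on the log2 scale. Leaving out each library gave -0.40 to 0.070 for Opn1sw, -0.042 to 0.25 for Opn1mw, -0.032 to 0.072 for Gnat2, -0.048 to 0.017 for Pde6h, -0.12 to 0.028 for Cnga3 and -0.017 to 0.12 for Cngb3, while Arr3 (0.049 to 0.27), Gnb3 (0.023 to 0.23), Gngt2 (-0.14 to -0.042) and Pde6c (0.12 to 0.21) kept their sign in these and the other alternatives. Gnb3 was 0.017 with the mouse as a block, and Gngt2 -0.047 with the block by title number. For Pde6c the kept sign follows from both FDM libraries lying above every control. The opsin balance kept its sign, from -0.59 to -0.0018 with each library left out, and was -0.26 with the authors' normalized counts. A fit without an FDM library assumes that the lone one varies like the controls. The 2 FDM libraries limit the precision to the intervals given above.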

Other observations

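Genes of Müller glia, the supporting cells of the retina, did not pass in edgeR (0 of 5 at an unadjusted p under 0.05, against 1.61% of all genes), with log2 fold changes from -0.25 for Apoe to 0.0081 for Glul. With the mouse as a block, Aqp4, for a water channel of their end feet, had a log2 fold change of 0.20 and Apoe, for a lipid carrier, of -0.18 (adjusted p of 0.619 and 0.654 from edgeR with the block). Aqp4 had 65.3 and 62.4 CPM in FDM 1 and FDM 3, and 52.9, 83.7 and 58.0 in Controls 1, 2 and 3, so that, as for Rgs9 and Thrb, the FDM eye was higher in each mouse and the unpaired Control 2 was the highest library. Apoe had 421, 463, 432, 570 and 577 CPM in the same order. Among the ON bipolar genes, Nyx, for a protein of the mGluR6 signalling complex, had 14.8, 14.7, 12.5, 19.0 and 13.6 CPM, the same order of libraries as Aqp4, and a log2 fold change of 0.18 with the block (adjusted p = 0.683 from edgeR with the block).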
